A study of Mus musculus with 75 samples.

Results

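The comparison described here is that of mouse embryonic stem cells whose labels name them RARX-DKO, the double knockout of the retinoic acid receptor gene Rara and the retinoid X receptor gene Rxra, with wild-type cells (WT). Its members were chosen by label, as the 2 RARX-DKO and the 2 WT libraries of the table of RNA-seq counts of the receptor knockouts, 4 of the 75 samples of the series. The same table holds 2 Rara-KO and 2 Rxra-KO libraries, which entered the fit and are set beside the double knockout where they show how it differs. A second table holds cells that overexpress a receptor (Rara-OE and Rxra-OE) and their vector control (V-OE), with 2 libraries each. All groups are E14 cells, a mouse embryonic stem cell line, and all received 2 µM retinoic acid (RA) for 24 h after LIF and the inhibitors of the 2i medium had been taken away. Cells without RA are therefore not part of these comparisons, and a lower level of an RA target means a lower level in RA-treated cells. The labels do not give the number of clones behind a genotype or the exons that were removed. They call the replicates biological without naming separate cultures, so the p-values measure the spread between these libraries, which may be technical.

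RA is a derivative of vitamin A that acts through heterodimers of an RAR and an RXR. Bound to repeated motifs in DNA, the dimer recruits corepressors without ligand and coactivators with it. In embryonic stem cells RA starts exit from pluripotency and switches on Hox genes, Cyp26 enzymes that degrade RA, and genes of neural and endodermal fates. RARA, RARB and RARG are paralogous receptors with overlapping roles, as are the RXRs, so loss of 1 member can leave others in place.

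The target genes were read first. Rara stood at 100.1 and 109 CPM (counts scaled to a library of 1e+06, over the scaled library size) in WT replicates 1 and 2 and at 5.57 and 6.53 CPM in RARX-DKO replicates 1 and 2. It lay at chromosome 11, 98927818 to 98974942 (mm10), and was lower by a log2 fold change of -4.11 ± 0.19 (SE), with an adjusted p of 1.58e-07 in edgeR's quasi-likelihood test with Benjamini-Hochberg adjustment, which gives all adjusted p values below. Rxra (chromosome 2, 27676440 to 27762957) stood at 38.2 and 46 CPM in WT and at 13.6 and 27.6 CPM in RARX-DKO. The groups did not overlap, but Rxra did not pass the test (-1.04 ± 0.26, adjusted p = 0.0654), and transcripts of it were still counted in both libraries labelled as double knockout. In the Rxra-KO libraries it stood at 18.4 and 16.1 CPM, between the 2 RARX-DKO values. In Rara-KO replicates 1 and 2 Rxra stood at 42.2 and 48.6 CPM, and Rara at 5.35 and 4.37 CPM. Since the removed exons are not named, counts over the whole gene do not show how much functional transcript was left.

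Depth was 7408691 to 13052102 counts a library, and mitochondrial transcripts took 2.13 to 4.15% of counts in the 4 libraries. The RARX-DKO replicates differed from each other by 13.5 times the counting variance and the WT replicates by 10.5 times. RARX-DKO replicate 1 and Rara-KO replicate 2 differed by only 4.89 times, less than any replicate pair of the table (7.74 to 13.5 times). Whether a library carries another genotype's label was not tested, and values given for the double knockout are those of the libraries labelled so. Of 16445 genes tested, 368 passed at an adjusted p under 0.05, which is 2.24% of genes, and 319 passed with those 2 libraries left out. Of the 368, 173 were higher (1.05% of genes) and 195 lower (1.19%) in RARX-DKO, and the groups did not overlap for any of them. The counts of all lists below are read against these shares. Groups that did not overlap were common in all genes, 21.5% higher and 23.1% lower. The count fell to 53 without WT replicate 1 and to 32 without WT replicate 2, and was 255 or 408 without RARX-DKO replicate 1 or 2. With each of the 4 libraries left out in turn, 28 genes kept their call. A change of 2-fold or more was seen in 191 genes and of 4-fold or more in 57, 40 of these lower.

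The Cyp26a1 promoter holds 2 core motifs in direct repeat with 5 bases between them, the layout of the textbook RA response element, and so does that of Rarb. They are shown because the former gene lost most of its RNA in the double knockout and the latter did not pass the test. The promoters run from 250 bases before to 50 bases after the start, in RefSeq on GRCm38.p6, 5′ to 3′ on the strand of the gene, with the core motifs in capitals. That of Cyp26a1 is chr19:37697558-37697857, plus strand, and the repeat lies 32 to 16 bases before the start, on the strand opposite to the gene. That of Rarb is chr14:16575427-16575726, minus strand, and the repeat lies 53 to 37 bases before the start. This start lies inside the Rarb gene (16430839 to 16819156). Counts over the whole gene therefore do not show how much RNA came from it.
Cyp26a1: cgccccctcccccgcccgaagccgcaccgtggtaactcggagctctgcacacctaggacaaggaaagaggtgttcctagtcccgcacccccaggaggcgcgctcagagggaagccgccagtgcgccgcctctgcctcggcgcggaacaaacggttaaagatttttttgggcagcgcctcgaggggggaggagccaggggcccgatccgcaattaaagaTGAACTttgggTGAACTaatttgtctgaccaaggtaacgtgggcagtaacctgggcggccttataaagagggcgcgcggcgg
Rarb: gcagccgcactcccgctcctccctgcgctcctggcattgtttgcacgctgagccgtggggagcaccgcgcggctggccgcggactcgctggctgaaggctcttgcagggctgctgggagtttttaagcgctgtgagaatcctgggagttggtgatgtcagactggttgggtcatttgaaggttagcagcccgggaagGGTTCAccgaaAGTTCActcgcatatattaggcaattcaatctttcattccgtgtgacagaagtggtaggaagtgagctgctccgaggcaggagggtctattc
The search took any pair of AGGTCA, the variant AGTTCA, the variant GGTTCA and the variant GGGTCA in the same direction, on either strand, with 1, 2 or 5 bases between. A repeat with 5 bases between was held by 0.115% of genes over all promoters of that length and by 0.0449% of tested genes, 5 of 11136 matched. The other 3 of these were Blvrb, Cfap45 and Syndig1, chosen here by sequence alone, and none of them passed. Of 138 genes lower in RARX-DKO with a promoter in RefSeq, 2 held any of the repeats (1.45%, against 0.467% of tested genes), Cyp26a1 and Slc25a21. Slc25a21, the gene of a mitochondrial carrier named after its values were seen, held a repeat with 2 bases between, 124 to 111 bases before its start on chromosome 12, and was low in all 4 libraries (1.84 and 1.77 CPM in WT, 0.227 and 0 CPM in RARX-DKO, adjusted p = 0.0349).
Slc25a21 repeat: TGACCCtgTGAACT
None of the 140 genes higher in RARX-DKO with a promoter in RefSeq held a repeat. A match is a match of letters, and the window leaves out distal elements.

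All 3 genes of the RA-degrading Cyp26 enzymes fell in the double knockout. Cyp26a1 stood at 526 and 550.3 CPM in WT and 25.7 and 27.3 CPM in RARX-DKO, a log2 fold change of -4.34 ± 0.32 (adjusted p = 0.000179). Cyp26b1 went from 38.6 and 40.2 to 2.61 and 3.81 CPM (-3.62 ± 0.43, adjusted p = 0.0016). Cyp26c1 went from 13.5 and 14.3 to 1.48 and 0.816 CPM (-3.56 ± 0.44, adjusted p = 0.00105). In each case both RARX-DKO libraries lay far under both WT libraries, and the call was kept with any 1 of the 4 libraries left out. The list median of -3.62 compares with 0.01 over all genes tested.

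**Figure D1:**
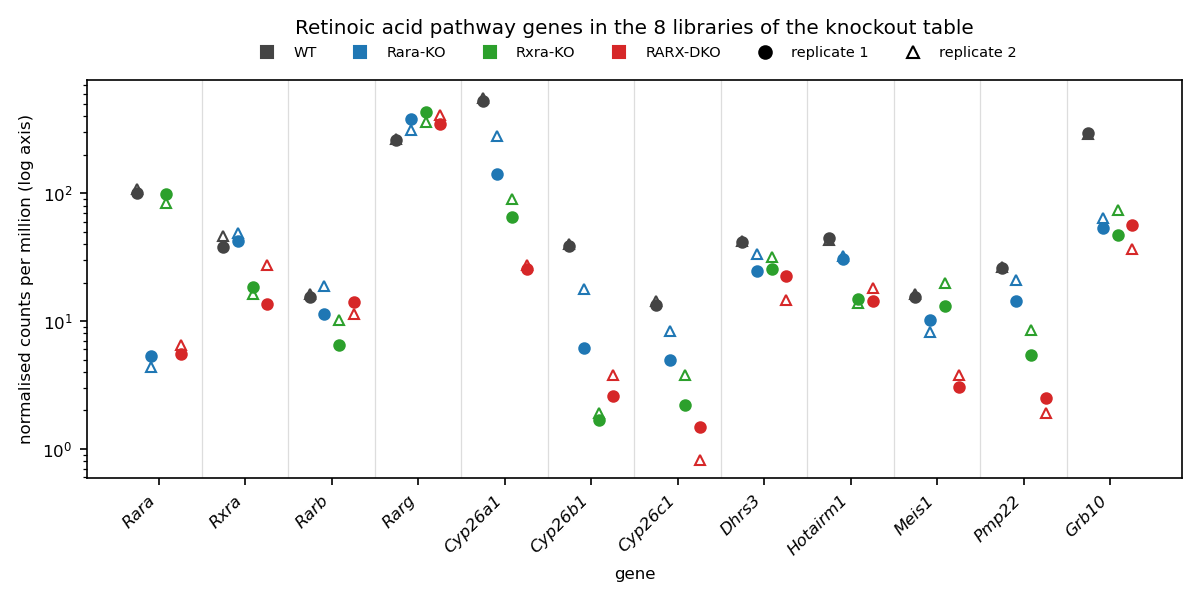
CPM, on a log axis, of 12 genes of the receptors, RA metabolism and RA response in the 8 libraries of the knockout table, coloured by group with circles for replicate 1 and triangles for replicate 2. Cyp26a1 stands at 25.7 and 27.3 in the RARX-DKO libraries, below every other library, while Rarb stands at 15.5 and 16.4 in WT and 14.1 and 11.4 in RARX-DKO.

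The 3 Cyp26 genes did not line up in the same way against the 2 single knockouts. Cyp26a1 stood at 141 and 279.5 CPM in Rara-KO and 64.6 and 89.6 CPM in Rxra-KO, so the double knockout was the lowest of the 4 groups. It passed the direct test against each, with a log2 fold change of -2.99 ± 0.30 (adjusted p = 0.0222) against Rara-KO and -1.54 ± 0.30 (adjusted p = 0.0258) against Rxra-KO. Cyp26b1 stood at 1.69 and 1.91 CPM in Rxra-KO, under both RARX-DKO values, and that difference did not pass (0.82 ± 0.54, adjusted p = 0.467). Cyp26c1 was at 4.92 and 8.4 CPM in Rara-KO and 2.21 and 3.81 CPM in Rxra-KO and did not pass against either (adjusted p = 0.183 and 0.142).

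Genes of retinoid supply moved less. Of 17 such genes 12 could be tested, with a median of 0.01. Where 1.19% of all genes fell, 2 of these fell and none rose. Among them Dhrs3, a retinaldehyde reductase that lowers the supply of RA, stood at 41.4 and 42.6 CPM in WT and 22.4 and 14.5 CPM in RARX-DKO (-1.18 ± 0.23, adjusted p = 0.0163). The groups did not overlap for Dhrs3, and its adjusted p was 0.199 without WT replicate 2. Aldh1a2, which makes RA from retinaldehyde, was near the lower limit of detection at 1.84 and 1.46 and 1.14 and 0.68 CPM (adjusted p = 0.573), and Rdh10, which oxidises retinol, stood at 7 and 7.3 and 7.16 and 6.93 CPM (adjusted p = 0.988).

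Of the 6 RAR and RXR genes only Rara passed. Rarb, itself a classic RA target, stood at 15.5 and 16.4 CPM in WT and 14.1 and 11.4 CPM in RARX-DKO (-0.32 ± 0.29, adjusted p = 0.695). Rarg stood at 259 and 265 and 348 and 408 CPM, higher without overlap but past no threshold (0.53 ± 0.15, adjusted p = 0.0951). Among 13 tested partners of RXR and COUP-TF receptors none passed, and among 14 coactivators and corepressors 1 fell. That was the coactivator gene Ncoa6 (84.6 and 84.6 to 52.5 and 51.3 CPM, -0.71 ± 0.14, adjusted p = 0.0163), and the genes within 10 Mb of it on chromosome 2 had a median log2 fold change of -0.36. The part of that position in its call was not tested, and it did not pass with any 1 of the 4 libraries left out, with an adjusted p of up to 0.187. The corepressor gene Ncor1 stood at 322 and 315 and 305 and 304 CPM.

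Of 19 genes induced by RA in embryonic stem cells, 10 fell and none rose, with a median of -1.18, where 1.19% of all genes fell. Without overlap of the groups 18 of 19 were lower, where 23.1% of all genes were. Besides Cyp26a1 and Dhrs3 the genes that fell included Hoxb1, Hoxa5, Cdx1, Zfp703, Meis1, Meis2 and Gata6. Stra8, a gatekeeper of meiosis named for its stimulation by RA, stood at 419 and 412 CPM in WT and 335 and 221 CPM in RARX-DKO and did not pass (adjusted p = 0.533). Zfp703, a corepressor gene on chromosome 8, went from 84.5 and 86.4 to 10.8 and 26.8 CPM (-2.20 ± 0.38, adjusted p = 0.0252, and 0.172 without WT replicate 2), while the median of genes within 10 Mb was 0.28, in the other direction.

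Hox genes are the transcription factors that set position along the body axis, and RA switches on the 3′ end of each cluster first. Where 1.19% of all genes fell, 4 of 12 tested genes of the Hoxa cluster fell and none rose. Among them Hoxa5 stood at 69.8 and 67 CPM in WT and 16.6 and 29.9 CPM in RARX-DKO (-1.56 ± 0.31, adjusted p = 0.03). Hoxa4 had a log2 fold change of -1.48 ± 0.35 (adjusted p = 0.0466). Hotairm1, an antisense transcript of the cluster, went from 44.3 and 43.2 to 14.4 and 18.2 CPM (-1.43 ± 0.19, adjusted p = 0.0016) and was the only member whose call was kept with each library left out. Without strand its reads and those of genes that overlap it cannot be told apart. The adjusted p rose to 0.356 for Hoxa4 without WT replicate 1, and to 0.196 for Hoxa5 without WT replicate 2.

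Values at the other end of the Hoxa cluster were higher, without a call. Hoxa9, Hoxa10, Hoxa11 and Hoxa13, outside the rule for naming, were chosen after their values were seen. They had higher values in both RARX-DKO libraries than in both WT libraries, as did 21.5% of all genes. Hoxa10 stood at 4.05 and 5.07 CPM in WT and 13.5 and 9.93 CPM in RARX-DKO (1.36 ± 0.34, adjusted p = 0.0542). Hoxa9 stood at 3.5 and 3.15 and 12.5 and 5.85 CPM (1.47 ± 0.42, adjusted p = 0.0984). None of the 4 passed against WT. In Rxra-KO Hoxa9 was at 1.04 and 1.78 CPM and Hoxa10 at 2.21 and 3.3 CPM, and the double knockout was higher than Rxra-KO for both (adjusted p = 0.0113 and 0.00965). In Rara-KO they were at 10.3 and 19.1 and 13.5 and 22.7 CPM.

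Where 1.19% of all genes fell, 3 of 12 tested genes of the Hoxb cluster fell, and the list median was -1.85. All 12 were lower in both RARX-DKO libraries than in both WT libraries, where 23.1% of all genes were. Hoxb1, a direct RA target of the hindbrain, stood at 16.6 and 16.5 CPM in WT and at 0 and 2.58 CPM in RARX-DKO (-3.75 ± 0.77, adjusted p = 0.0423). Hoxb6 went from 13.8 and 16.5 to 0.114 and 2.86 CPM (-3.42 ± 0.70, adjusted p = 0.0362), and Hoxb9 from 19.9 and 17.2 to 5.23 and 9.65 CPM (-1.33 ± 0.31, adjusted p = 0.044). Hoxb2 and Hoxb3, next to Hoxb1, did not pass (adjusted p = 0.412 and 0.301). The RARX-DKO replicates differed from each other over the cluster, with replicate 1 lower than replicate 2 for all 12 genes. Hoxb2 stood at 22.9 and 23.6 CPM in WT but at 1.7 and 13.9 CPM in RARX-DKO replicates 1 and 2. Without RARX-DKO replicate 1 the log2 fold change was -2.67 for Hoxb1 and -2.40 for Hoxb6. Without RARX-DKO replicate 2 that of Hoxb6 was -6.89, and Hoxb2 (-3.75, adjusted p = 0.000559) and Hoxb3 (-3.94, adjusted p = 0.000559) passed, as did Hoxb1 (adjusted p = 5.52e-05), which was then at 0 counts in the group left. The calls were lost without a WT library, at adjusted p values of 0.238, 0.249 and 0.312 for Hoxb1, Hoxb6 and Hoxb9. Of 9 tested Hoxc and Hoxd genes none passed, with a median of 0.07.

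Of 11 tested Cdx genes and TALE cofactors of Hox proteins 4 fell and 7 did not pass, where 1.19% of all genes fell. The list had a median of -0.99, and 3 members had a log2 fold change above 0. Meis1, a TALE homeobox partner of Hox proteins, went from 15.5 and 16.3 to 3.07 and 3.81 CPM (-2.21 ± 0.30, adjusted p = 0.00241). Meis2, its paralogue, went from 49.1 and 41.9 to 24.2 and 21.6 CPM (adjusted p = 0.00857). Cdx1, a caudal homeobox gene that acts upstream of Hox genes, went from 126 and 133 to 69.5 and 45.1 CPM (-1.17 ± 0.18, adjusted p = 0.00499). The groups did not overlap for any of these 3, as for every gene that passed. Against Rxra-KO they split, with Meis1 (-2.27 ± 0.31, adjusted p = 0.00251) and Meis2 (-1.16 ± 0.17, adjusted p = 0.00344) lower in the double knockout and Cdx1 higher (0.79 ± 0.19, adjusted p = 0.0357). The calls against WT were lost without a WT library for all 3, at adjusted p values of 0.0644 for Meis1, 0.114 for Meis2 and 0.109 for Cdx1.

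**Figure D2:**
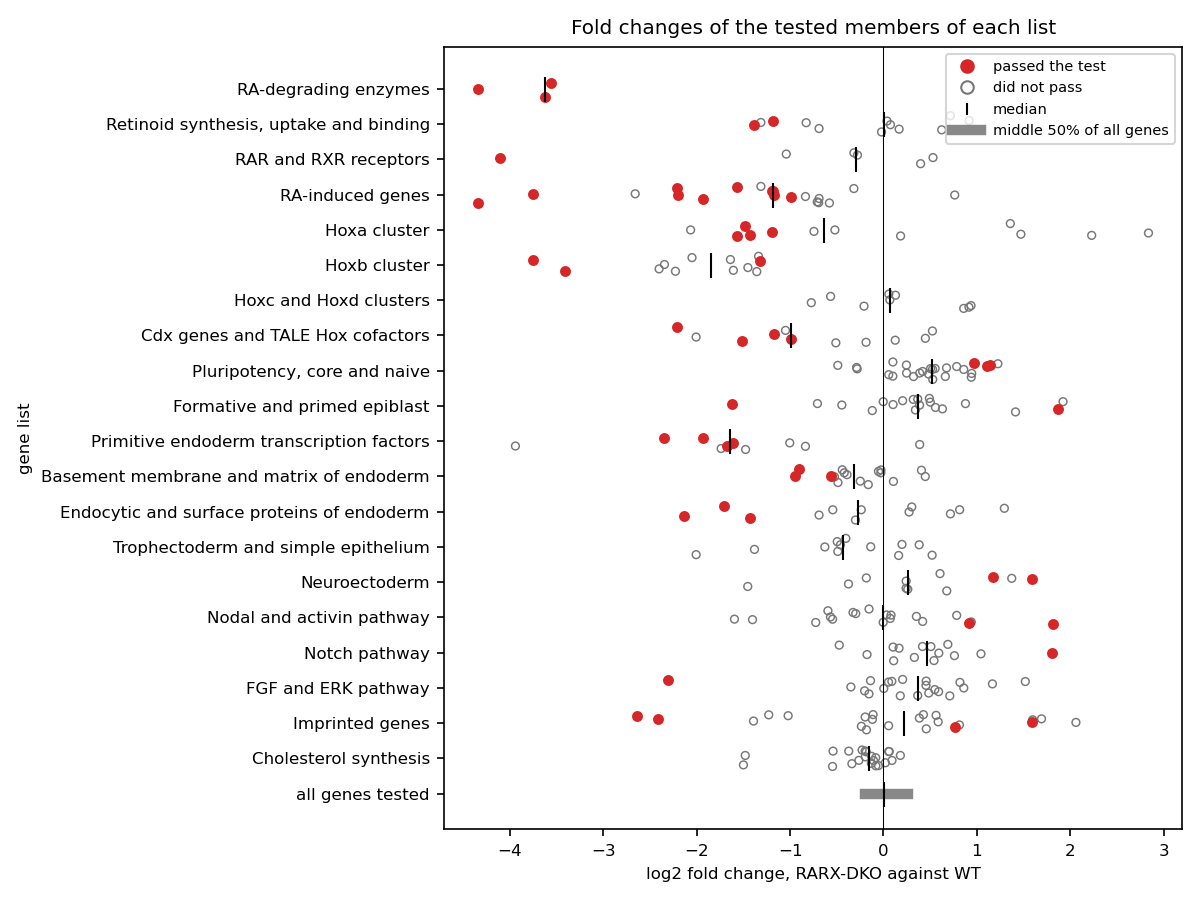
Log2 fold changes of RARX-DKO against WT for the tested members of 20 gene lists, with filled points for genes that passed, open points for genes that did not, a tick at each list's median and a grey bar for the middle 50% of all genes tested. The Cyp26, Hoxb and primitive endoderm lists lie lowest, with medians of -3.62, -1.85 and -1.65, and the pluripotency list has a median of 0.51.

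Some genes of primitive endoderm, the extraembryonic lineage that embryonic stem cells can enter under RA, fell. In bulk RNA, fewer cells of that kind and less RNA per cell cannot be told apart. Of 10 tested transcription factors 4 fell and none rose, with a median of -1.65, where 1.19% of all genes fell. Without overlap 9 were lower, where 23.1% of all genes were. A list of definitive endoderm and foregut genes, which shares Sox17 and Foxa2 with it, had a median of -1.65 too, with 2 of 6 tested genes lower by the test. Gata6, which starts the lineage, stood at 50.7 and 51.1 CPM in WT and 12 and 14.7 CPM in RARX-DKO (-1.93 ± 0.18, adjusted p = 0.000139), and its call was kept with each library left out. Gata4 went from 10.7 and 10.9 to 2.04 and 2.18 CPM (-2.35 ± 0.33, adjusted p = 0.00264). Sox17 went from 6.17 and 6.53 to 1.59 and 2.58 CPM (adjusted p = 0.0383). Foxa2 was at 2.86 and 1.38 CPM in WT and 0.114 and 0.136 CPM in RARX-DKO, and did not pass (adjusted p = 0.0512). Without WT replicate 2 the adjusted p was 0.059 for Gata4 and 0.274 for Sox17.

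Products of endoderm cells followed in part. Of 16 tested genes of basement membrane and matrix 3 fell, all laminin chains. Over all genes 1.19% fell, which also applies to the endocytic and surface genes below. Lama1 went from 69.8 and 84.6 to 41.1 and 39 CPM (-0.95 ± 0.16, adjusted p = 0.00788), Lamb1 from 107 and 124 to 60.7 and 62.5 CPM (-0.91 ± 0.14, adjusted p = 0.00641) and Lamc1 from 495 and 536 to 346 and 350.2 CPM (-0.57 ± 0.14, adjusted p = 0.0481). Together these chains form laminin-111, the first laminin of the embryo. Of 12 tested endocytic and surface genes 3 fell, the endocytic receptor Cubn (-2.14 ± 0.49), its adaptor Dab2 (-1.71 ± 0.40) and the growth factor receptor Pdgfra (-1.43 ± 0.27), with adjusted p values of 0.041, 0.041 and 0.0146. Lrp2, the partner of Cubn in endocytosis, overlapped between the groups (89.5 and 113 and 72.5 and 99.3 CPM). The log2 fold change of Cubn was -3.44 without RARX-DKO replicate 2 and -1.40 without replicate 1. Each of these 6 calls was lost without at least 1 library, at adjusted p values of up to 0.172 for Lama1, 0.148 for Lamb1, 0.384 for Lamc1, 0.37 for Cubn, 0.315 for Dab2 and 0.168 for Pdgfra.

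The endoderm genes stood highest in Rxra-KO. Gata6 was at 70.1 and 75.2 CPM there, against 18.6 and 24 CPM in Rara-KO, and the double knockout was lower than Rxra-KO (-2.45 ± 0.19, adjusted p = 1.55e-05). Gata4 was at 16.5 and 16 CPM in Rxra-KO (-2.94 ± 0.33, adjusted p = 0.000638) and Pdgfra at 30.7 and 28.2 CPM (-2.32 ± 0.27, adjusted p = 0.000954). Over the lists, 6 of 10 transcription factors, 3 of 16 matrix genes and 5 of 12 endocytic and surface genes were lower in the double knockout than in Rxra-KO and none higher, where 1.48% of all genes were lower. None of these genes passed between the double knockout and Rara-KO, a comparison with calls for 0.0122% of genes, which does not show that the levels were the same.

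Zfp42 and Sox2, markers of undifferentiated cells, rose. Of 26 tested members of the core and naive pluripotency list 3 rose and none fell, with a median of 0.51. Over all genes 1.05% rose. The third riser of the list was Manba, the gene of a lysosomal enzyme rather than a marker of undifferentiated cells. The lists were chosen with earlier results of these data known, so the count of 3 is not independent of them. Without overlap 18 of the 26 were higher, where 21.5% of all genes were. Zfp42, also known as Rex1, stood at 369 and 372 CPM in WT and 786 and 848 CPM in RARX-DKO (1.14 ± 0.14, adjusted p = 0.000954). Manba, a lysosomal mannosidase, stood at 134 and 139 and 297 and 290.01 CPM (1.10 ± 0.13, adjusted p = 0.00081), and both passed again in all 4 fits that leave out 1 library. Sox2, a core pluripotency factor, stood at 240.1 and 193 and 472 and 376 CPM (0.97 ± 0.15, adjusted p = 0.00611, and 0.164 without WT replicate 2). Nanog was higher without overlap at 469 and 411 and 835 and 558 CPM but did not pass (0.66 ± 0.18, adjusted p = 0.0748), and Pou5f1 stood at 1441 and 1545 and 1748 and 1983 CPM (adjusted p = 0.312). Pou5f1, which defines embryonic stem cells, was thus present in all 4 libraries. Genes within 10 Mb of Zfp42, on chromosome 8, had a median of 0.17.

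Among formative and primed epiblast genes 1 of 19 rose and 1 fell, where 1.05% of all genes rose and 1.19% fell. Foxd3, which guards the epiblast and later the neural crest, went from 11.5 and 9.68 to 46.3 and 30.9 CPM (1.87 ± 0.28, adjusted p = 0.00641). Sox3, a SOXB1 factor of epiblast and neural progenitors, went from 19.3 and 19.97 to 6.59 and 6.12 CPM (-1.62 ± 0.29, adjusted p = 0.0107). Sox3 was at 5.88 and 7.31 CPM in Rara-KO and at 18.1 and 31.5 CPM in Rxra-KO, while Foxd3 was above WT in both, at 37.8 and 24.8 and 36 and 54.8 CPM. Without WT replicate 2 the adjusted p was 0.163 for Foxd3 and 0.172 for Sox3. Otx2, a factor of primed cells, stood at 1.11 and 1.69 and 1.7 and 9.25 CPM, with most of the difference in RARX-DKO replicate 2 (adjusted p = 0.226).

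Of 11 tested neuroectoderm genes 2 rose, where 1.05% of all genes rose. Tubb3, the neuronal tubulin, went from 22.2 and 26.6 to 50.8 and 59.8 CPM (1.18 ± 0.22, adjusted p = 0.0139). Nnat, the imprinted gene of neuronatin, went from 3.22 and 4.84 to 11.2 and 13.3 CPM (1.59 ± 0.36, adjusted p = 0.0392), with genes within 10 Mb of it on chromosome 2 at a median of -0.34. The neural factors Sox1 and Pax6 did not pass (adjusted p = 0.118 and 0.49). Without WT replicate 1 the adjusted p was 0.191 for Tubb3 and 0.335 for Nnat. Elavl3, a neuronal RNA-binding protein, was among the 10 largest rises (3.04 and 3.99 to 17.3 and 10.6 CPM, 1.98 ± 0.37, adjusted p = 0.014, and 0.2 without WT replicate 1). Of 12 trophectoderm and 7 primitive streak and mesoderm genes tested, 0 and 1 passed, the latter being Pdgfra. Of 14 fibroblast markers only 5 reached the level needed for a test, and 1 of them rose. This was Thy1, a surface glycoprotein that embryonic stem cells can also express (1.84 and 2.46 to 8.18 and 9.79 CPM, 2.05 ± 0.35, adjusted p = 0.00944, and 0.152 without WT replicate 2), while the collagen gene Col1a1 stood at 4.42 and 4.07 and 5.57 and 5.71 CPM.

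**Figure D3:**
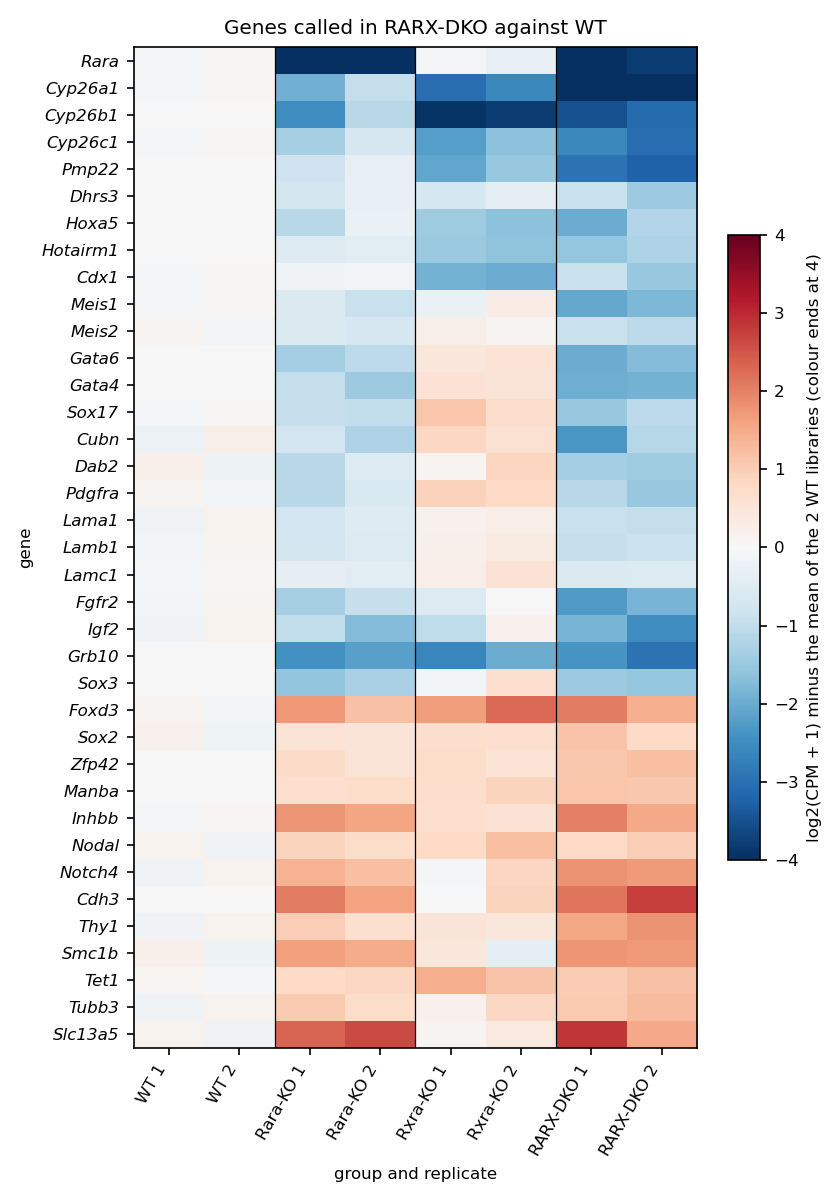
Colour shows log2(CPM + 1) minus the mean of the 2 WT libraries for 37 named genes called in RARX-DKO against WT, in rows, over the 8 libraries of the knockout table, in columns. Gata6 and Pdgfra are below WT in both RARX-DKO libraries and above it in both Rxra-KO libraries, whereas Grb10 is below WT in all 6 knockout libraries.

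In the signalling pathways few genes passed. Of 19 tested Nodal and activin genes 2 rose and none fell, where 1.05% of all genes rose. Inhbb, the beta-B subunit of activin and inhibin, went from 32.8 and 36 to 142 and 100.3 CPM (1.82 ± 0.18, adjusted p = 0.000139) and kept its call with each library left out. It stood at 119.8 and 106 CPM in Rara-KO and 55.7 and 51.6 CPM in Rxra-KO, and the double knockout was higher than Rxra-KO (1.18 ± 0.17, adjusted p = 0.00372). Nodal, the TGF-beta family ligand of the epiblast, went from 48.6 and 39.5 to 77.6 and 88.4 CPM (0.91 ± 0.17, adjusted p = 0.015, and 0.249 without WT replicate 2), but the genes within 10 Mb of it on chromosome 10 had a median of 0.69. Against Rxra-KO the log2 fold change of Nodal was -0.12. Lefty1 and Lefty2, the feedback inhibitors of Nodal, did not pass (adjusted p = 0.228 and 0.987).

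Of 14 tested Notch genes 1 rose, with a median of 0.46 and 7 higher without overlap. Over all genes 1.05% rose and 21.5% were higher without overlap, which also applies to the FGF and ERK counts below. The receptor gene Notch4 went from 14.1 and 17.2 to 56.9 and 52.8 CPM (1.81 ± 0.26, adjusted p = 0.00457, and 0.0864 without WT replicate 1). Notch1 stood at 39.9 and 48 and 51.9 and 46.8 CPM. The 21 tested FGF and ERK genes had a median of 0.37, with 9 higher without overlap, and 1 fell, the receptor gene Fgfr2 (19.3 and 22.7 to 3.52 and 5.03 CPM, -2.30 ± 0.31, adjusted p = 0.00193, and 0.0644 without WT replicate 2). Fgfr2 stood at 13.9 and 21.1 CPM in Rxra-KO, and the double knockout was lower (-2.04 ± 0.31, adjusted p = 0.00441). Fgf4, the main FGF ligand of embryonic stem cells, was higher without overlap but did not pass (135 and 121 and 179 and 287 CPM, adjusted p = 0.0889). Of 19 tested Wnt genes 1 fell, the secreted inhibitor gene Sfrp5 (20.9 and 25.2 to 7.27 and 7.07 CPM, -1.68 ± 0.27, adjusted p = 0.00735, and 0.17 without WT replicate 2). None of 16 BMP and 8 Hedgehog genes passed.

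Of 22 tested imprinted genes 2 rose and 2 fell, where 1.05% of all genes rose and 1.19% fell. Grb10, an adaptor that restrains insulin and growth factor receptors, went from 293 and 288 to 56.2 and 36.7 CPM (-2.64 ± 0.23, adjusted p = 0.000159) and kept its call with each library left out. The 3 knockout genotypes lay close together for Grb10, at 53.3 and 64.4 CPM in Rara-KO and 47.1 and 73.3 CPM in Rxra-KO. Igf2, the fetal growth factor, went from 17.3 and 21.4 to 4.54 and 2.58 CPM (-2.42 ± 0.45, adjusted p = 0.0165, and 0.19 without WT replicate 2). H19, which shares an imprinting control region with Igf2, spread widely at 10.2 and 12.9 CPM in WT and 19 and 56.7 CPM in RARX-DKO (adjusted p = 0.495). Besides Nnat, the zinc finger gene Peg3 rose, from 39.7 and 45 to 66.3 and 78.3 CPM (0.77 ± 0.18, adjusted p = 0.0401, and 0.306 without WT replicate 1).

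Among the 10 largest falls that met the rule for naming, Pmp22 was outside the Cyp26, receptor and Hox lists. This gene of a peripheral myelin membrane protein (chromosome 11, 63128982 to 63159547) stood at 26.2 and 26.6 CPM in WT and 2.5 and 1.9 CPM in RARX-DKO (-3.56 ± 0.32, adjusted p = 0.000105), and its call was kept with each library left out. It was also the only gene besides Cyp26a1 to pass between the double knockout and Rara-KO, where it stood at 14.4 and 21 CPM (-2.99 ± 0.33, adjusted p = 0.00655). In Rxra-KO it was at 5.47 and 8.51 CPM, again above the double knockout (-1.65 ± 0.34, adjusted p = 0.0206). The comparison with Rara-KO gave 2 calls among 563 genes with an unadjusted p under 0.05, 19 calls by DESeq2, 0 with these 2 groups alone in the fit, and 47 or 8 without RARX-DKO replicate 1 or 2, and 38 without the 2 libraries that lie close. Without RARX-DKO replicate 1, 1 of the 2 calls was kept, and likewise without replicate 2. The comparison with Rxra-KO gave 331 genes higher and 244 lower in the double knockout (2.01% and 1.48% of genes), which became 414 and 173 with library totals in place of TMM. It gave 30 calls in all with these 2 groups alone in the fit, 174 or 879 without RARX-DKO replicate 1 or 2, 233 without Rxra-KO replicate 2 and 267 without the close libraries.

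The rest of the 10 largest falls were Gfra3, a co-receptor for the neurotrophic factor artemin, and Plat, the tissue plasminogen activator, a known product of parietal endoderm. Gfra3 went from 6.73 and 8.22 to 0.568 and 1.5 CPM (-2.88 ± 0.53, adjusted p = 0.013, and 0.193 without WT replicate 2). Plat went from 4.7 and 4.61 to 0.568 and 0.816 CPM (-2.74 ± 0.51, adjusted p = 0.0131, and 0.172 without WT replicate 2). Both were low in CPM, and the rule for naming already required that the groups did not overlap.

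The 10 largest rises that met the rule came from genes of several kinds. Slc13a5, a citrate transporter, went from 1.66 and 1.15 to 16.4 and 5.85 CPM (2.99 ± 0.48, adjusted p = 0.00712), with RARX-DKO replicate 1 well above replicate 2. Cdh3, or P-cadherin, went from 5.07 and 5.3 to 26 and 41.3 CPM (2.69 ± 0.33, adjusted p = 0.00144). Mt3, a metallothionein of the nervous system, went from 0.737 and 0.768 to 4.32 and 5.03 CPM (adjusted p = 0.031), whereas Mt1 and Mt2 did not pass (adjusted p = 0.322 and 0.154). The rule for naming took only genes whose groups did not overlap, so the lack of overlap among these rises is no separate result. The others were Trp53tg5 (2.48), the potassium channel gene Kcnh3 (2.14), Thy1, the MHC class II gene H2-Eb1 (2.03), the antisense gene Nphs1os (2.00), Elavl3 and Soga3 (1.96). Each of these 10 calls was lost without at least 1 WT library, at adjusted p values of 0.0644 for Cdh3, 0.106 for Soga3, 0.187 for Slc13a5 and 0.31 for Mt3. In Rara-KO Slc13a5 was at 11.1 and 14 CPM and Cdh3 at 24.5 and 17.8 CPM, and in Rxra-KO they were at 1.56 and 2.16 and 5.21 and 10.4 CPM, lower than in the double knockout (adjusted p = 0.0132 and 0.00617). For the count of adhesion genes that follows, 1.05% of all genes rose. Of 20 tested adhesion genes 3 rose, Cdh3, Thy1 and the epithelial adhesion gene Epcam (46.4 and 42.5 to 82.7 and 74.9 CPM, adjusted p = 0.0203, and 0.254 without WT replicate 2), while Cdh1 overlapped between the groups.

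Called genes were spread unevenly over the chromosomes. Chromosome 10 held 52 genes that rose and 2 that fell, of 750 tested. Chromosome 2 held 11 and 51, of 1260. On both, WT stood apart from all 6 knockout libraries. The median log2 deviation of chromosome 10 genes lay at -0.05 and -0.06 for the WT libraries but between 0.01 and 0.07 for the others, and that of chromosome 2 genes was 0.09 and 0.10 in WT and below 0 in the knockouts. The labels do not say whether WT and the knockouts share a parent clone or passage, so a difference of genotype and a difference between the lines cannot be told apart. On chromosome 8 there were 13 and 4, and the median log2 deviation of its genes was 0.34 in RARX-DKO replicate 2 and -0.07 in replicate 1. With chromosomes 2, 6, 8, 10, 16 and Y left out of the count, 212 genes remained. Tet1, which oxidises 5-methylcytosine, was the 1 gene called of 11 DNA methylation enzymes (126 and 113 to 240.1 and 269 CPM, 1.09 ± 0.15, adjusted p = 0.00194, and 0.0807 without WT replicate 2), and its neighbours within 10 Mb on chromosome 10 had a median of 0.67. Ddit4, a stress-induced inhibitor of mTORC1 on the same chromosome, rose by 0.94 with neighbours at 0.73. Pcna, the clamp of DNA replication on chromosome 2, fell from 442 and 435 to 223 and 271 CPM (-0.83 ± 0.16, adjusted p = 0.0178, and 0.193 without WT replicate 2), with neighbours at -0.41. For these genes a change of the chromosome region and a change of the gene cannot be told apart in this table.

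**Figure D4:**
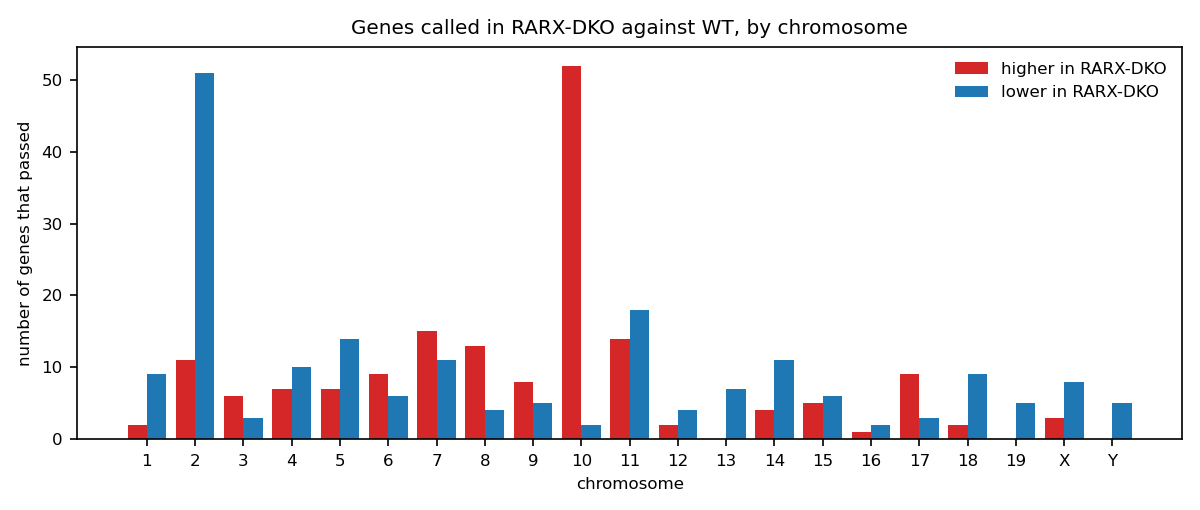
Number of genes that passed in RARX-DKO against WT on each chromosome, with red bars for genes higher and blue bars for genes lower in RARX-DKO. Chromosome 10 has 52 higher and 2 lower, and chromosome 2 has 11 higher and 51 lower.

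On the Y chromosome 5 of 7 tested genes fell, and all 5 had 0 counts in both RARX-DKO libraries. Eif2s3y, a translation factor gene, stood at 62.6 and 44 CPM in WT and was at least 287-fold lower, against a floor of 3 counts over the group that covers counting error only. Ddx3y was at least 236-fold, Uba1y 159-fold, Uty 80.9-fold and Zfy1 30.0-fold lower by the same floor. These genes were also at 0 in both Rara-KO libraries, while Rxra-KO had Eif2s3y at 61 and 67.6 CPM. Loss of the chromosome and silencing of its genes cannot be told apart here.

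Other named genes with calls mostly lay in lists with 1 or 2 calls. Of 23 cell cycle genes Cdkn1a, the cyclin-dependent kinase inhibitor p21, rose (17.3 and 22.8 to 39 and 36.6 CPM, adjusted p = 0.0302, and 0.291 without WT replicate 1) and Pcna fell. Of 17 tested p53 targets Cdkn1a passed, and 7 were higher without overlap. Over all genes 21.5% were higher and 23.1% lower without overlap, and 1.05% rose and 1.19% fell by the test. The counts of the lists below are read against the same shares. Of 15 germline genes the meiotic cohesin gene Smc1b rose (9.03 and 6.53 to 28.5 and 27.1 CPM, 1.84 ± 0.28, adjusted p = 0.00457, and 0.163 without WT replicate 2) and the receptor gene Kit fell (139 and 148 to 86.6 and 67.7 CPM, adjusted p = 0.0106, and 0.174 without WT replicate 2). Of 12 solute carriers of metabolites the glutamine transporter gene Slc1a5 fell (209.7 and 239.7 to 146 and 117 CPM, adjusted p = 0.0229, and 0.282 without WT replicate 2) besides the rise of Slc13a5. Of 18 glycolysis and hypoxia genes 8 were higher without overlap, and the glucose transporter gene Slc2a1 fell (471 and 503 to 284 and 329 CPM, adjusted p = 0.0243, and 0.257 without WT replicate 2). None of 22 cholesterol synthesis genes passed, although 10 were lower without overlap and none higher. None of 19 polycomb and trithorax, 14 NRF2, 6 tested 2-cell-like and 13 mitochondrial and RNA quality genes passed, the last with a median of 0.35, or -0.03 without RARX-DKO replicate 1.

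The overexpression table shares no library with the knockouts, so it gives values for the same genes from other cells. Rara was at 51.6 and 52.4 CPM in V-OE and 105 and 111 CPM in Rara-OE. In Rara-OE 28.6% of 16914 genes passed against V-OE (14.7% higher, 13.9% lower) and in Rxra-OE 60.2% (30.9% higher, 29.3% lower), so the shares that follow are read against a high background. Of 172 genes that rose in the double knockout and were tested in both tables, 91 (52.9%) were lower in Rara-OE and 10 (5.81%) higher, where 14.5% and 14.8% of all genes tested in both were. Of 190 genes that fell, 123 (64.7%) were higher in Rara-OE and 12 (6.32%) lower. In Rxra-OE 121 (70.3%) of the genes that rose were lower and 138 (72.6%) of those that fell were higher, where 30.4% and 30.3% of all genes were. In the same direction as in the double knockout, 25 (14.5%) of the genes that rose were higher and 25 (13.2%) of those that fell were lower. As shares of the overexpression lists, 3.94% of genes lower in Rara-OE rose and 5.19% of those higher fell in the double knockout, and 2.49% and 2.85% for Rxra-OE. With chromosomes 2, 6, 8, 10, 16 and Y left out the shares of the double knockout lists in the opposite direction were 60.5%, 72.8%, 77.9% and 78.4%.

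Named genes show the scale of these values. Cyp26a1 stood at 184 and 186 CPM in V-OE, 529 and 541 CPM in Rara-OE and 1088 and 1096 CPM in Rxra-OE. Pmp22 stood at 30.2 and 24.6, 119 and 123 and 250.1 and 245 CPM in the same order. Both genes were thus higher with either receptor and lowest in the double knockout of the other table. Gata4 rose from 3.26 and 3.06 CPM to 37 and 35.2 and 25.9 and 29.1 CPM. Inhbb, higher in the double knockout, fell from 173 and 169 CPM in V-OE to 55.8 and 57.2 CPM in Rara-OE and 1.62 and 1.61 CPM in Rxra-OE. Notch4 fell from 62.1 and 58.4 to 11.4 and 11.7 and 1.16 and 1.27 CPM. Zfp42 fell from 886 and 855 to 459 and 437 and 80.6 and 77.2 CPM. Grb10 moved less, from 28 and 28.8 CPM to 40.1 and 35.8 and 37.8 and 39.5 CPM, a log2 fold change of 0.42 and 0.45. Cdh3 was 1 of the 25 genes higher in both the double knockout and Rxra-OE, rising from 33.8 and 38.6 to 78.2 and 83.9 CPM (adjusted p = 5.09e-18). All of these genes passed against V-OE in the comparisons named. V-OE and WT were counted in separate tables, so their levels are not compared.

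**Figure D5:**
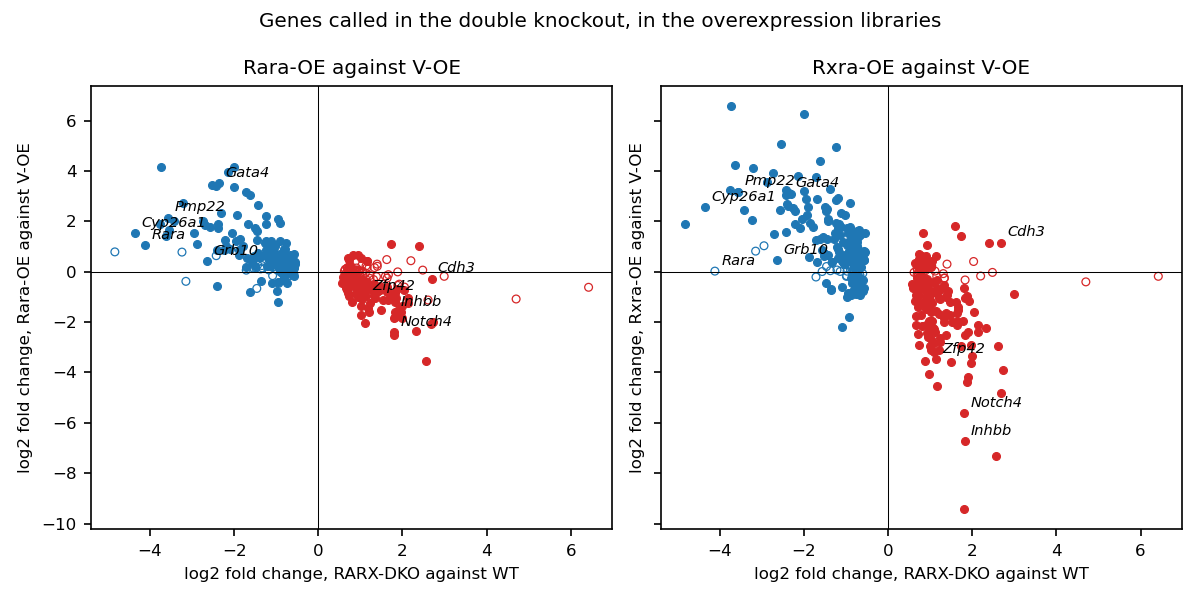
Log2 fold changes of genes called in RARX-DKO against WT (horizontal axis) and in Rara-OE or Rxra-OE against V-OE (vertical axes), with blue for genes lower and red for genes higher in RARX-DKO, and filled points for genes that passed in the overexpression comparison. In the left panel 123 of 190 blue genes are higher and 91 of 172 red genes are lower in Rara-OE.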

How the data were processed

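RNA-seq libraries of RARX-DKO, WT, Rara-KO and Rxra-KO cells and of Rara-OE, Rxra-OE and V-OE cells were analysed, with 2 each. The authors deposited raw counts per gene, not normalized, in 1 table for the knockouts and 1 for overexpression. Per the submitters' processing notes the build was mm10, and the tools named, without role or order, included the aligner HISAT2 2.1.0, the counter HTSeq 0.9.1 and the package DESeq2 1.18.1, so strand handling is not given in the sources used here. Of 52535 entries, 26 names had been turned into dates and 2 were repeated, and all were kept as separate genes. The model was fitted once per table, to all its groups, with TMM scaling and the quasi-likelihood test of edgeR 4.0.16 (R 4.3.3, robust settings). Genes under the filterByExpr minimum of 10 counts were left out, which left 16445 genes in the knockout table and 16914 in the overexpression table. P-values were adjusted by the Benjamini-Hochberg method over all genes tested, and genes under 0.05 were called. CPM values were computed with the TMM-scaled library size, and the SE was taken by dividing the size of the log2 fold change by the root of its F statistic. DESeq2 1.42.0 was an alternative. Gene positions are those of GENCODE on mm10 and were found for 15992 tested genes. Promoter sequences are from RefSeq (GRCm38.p6), matched by symbol.

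Lists are described by counts and medians, with no test of a list. The rule named Rara and Rxra, up to 10 rises and 10 falls with the largest change among genes that passed, had no overlap between groups and reached 1 on the mean log2 CPM scale, Y-linked genes as a group apart, up to 5 passing members and the first 3 members of each list, and 8 RA targets. The members and lists were chosen with earlier results of these data known. Data were simulated with the depth of the 8 libraries, and genes were changed only among those with a mean above 2 CPM. Of these, 56 of 100 changed by a log2 fold change of 1 and 90 of 100 changed by 2 were recovered. The fit held 16174 genes and gave 11 false calls. Recovery of genes with lower counts and the effect of chromosome-wide shifts were not simulated. Bounds from counts of 0 cover only the error of counting. Chromatin and contact samples were not used here. Some genes that the rule named are counted in their lists but not reported here by name.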

Additional observations from a re-analysis of the deposited data

How the results depend on the processing

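With 2 libraries a group, the number of calls depends on each library, and single genes of modest change should be read with their values. The count of 368 genes in RARX-DKO against WT became 191 at 2-fold or more, 212 without chromosomes 2, 6, 8, 10, 16 and Y, 981 without the filter on low counts and 582 by DESeq2, and ranged from 32 to 408 with 1 library left out. Against Rara-KO the count of 2 became 1 with library totals, 58 without the filter, 19 by DESeq2 and 0 with these groups alone, and ranged from 3 to 47 with 1 library left out. Leaving out the close libraries, an alternative chosen after seeing the data, gave 38 against Rara-KO and 267 against Rxra-KO. Against Rxra-KO the count of 575 became 1366 without the filter and 30 with these groups alone, and ranged from 174 to 879 with 1 library left out. A lone library left in a group was taken to vary like the others. In Rara-OE the count of 4829 became 903 at 2-fold or more and 2766 by DESeq2, and in Rxra-OE that of 10178 became 3505 at 2-fold or more, where library totals shifted the median of all genes by 0.10. With AGGTCA and AGTTCA alone, 1 called gene in place of 2 held a repeat. No called named gene changed sign under any alternative, and 32 named genes that did not pass did. The causes of these differences were not tested. Replicate numbers did not pair the samples: deviations of same-numbered libraries correlated at -0.07 between WT and RARX-DKO, -0.21 between Rara-KO and RARX-DKO and -0.08 between Rxra-KO and RARX-DKO. With a replicate block the counts were 296 against WT, 2 against Rara-KO and 416 against Rxra-KO. With crossed numbers in RARX-DKO, also chosen after seeing the data, the block gave 9 calls against Rara-KO.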

Other observations

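Of the 28 genes whose call was kept with each of the 4 libraries left out, 13 lie outside the rule for naming, and those given here were chosen after their values were seen. The values are CPM, followed by the log2 fold change of RARX-DKO against WT ± SE and edgeR's adjusted p. Krt20, a keratin of simple epithelia, stood at 4.98 and 6.37 CPM in WT and 0.114 and 0.272 CPM in RARX-DKO (-4.83 ± 0.59, adjusted p = 0.000954). Dsc2, a desmosomal cadherin gene, went from 19.7 and 19 to 4.32 and 2.99 CPM (-2.39 ± 0.30, adjusted p = 0.00143). Mrc2, an endocytic receptor for collagen, went from 60.7 and 68 to 17.3 and 20.1 CPM (-1.79 ± 0.19, adjusted p = 0.000265), and Prtg, a receptor of the immunoglobulin superfamily found in the early embryo, from 59.5 and 56.2 to 11.9 and 20.4 CPM (-1.85 ± 0.22, adjusted p = 0.00081). In Rxra-KO, Mrc2 stood at 52.4 and 49.9 CPM and Prtg at 54.3 and 53.4 CPM. In Rara-KO, Mrc2 stood at 27.2 and 37.3 CPM and Prtg at 25.5 and 30.3 CPM. Cotl1, which binds actin filaments, went from 159 and 172 to 47.8 and 53.4 CPM (-1.71 ± 0.14, adjusted p = 4.18e-05).

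Aire, best known as a regulator of self-antigens in the thymus, was higher, at 10.1 and 8.91 CPM in WT and 31.8 and 39.8 CPM in RARX-DKO (1.91 ± 0.21, adjusted p = 0.000408). It lies on chromosome 10, but its neighbours within 10 Mb had a median of 0.02. Fbxo2, a ubiquitin ligase subunit that binds glycoproteins, went from 24 and 27.3 to 94.4 and 66.1 CPM (1.64 ± 0.19, adjusted p = 0.000624). Sirt1, a deacetylase gene, rose too (1.34), with neighbours on chromosome 10 at 0.66.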
